A study of Mus musculus with 8 samples.

Results

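The forkhead genes form a family of transcription factors that share a winged helix DNA-binding domain and are named by subfamily letter, from Foxa to Foxs. All gene symbols of the form Fox, a letter from a to s and a number were taken as the family, which gave 44 of the 28460 genes measured, in 19 lettered subfamilies. They were measured by RNA-seq in cells prepared from mouse testes at postnatal day 12, in 4 samples wild type for Brg1 (Brg1 WT) and 4 in which Brg1 was conditionally knocked out (Brg1 cKO), all on a mixed strain background. The design text calls the 4 samples of a genotype biological replicates. Brg1 is the product of Smarca4, the ATPase that drives SWI/SNF chromatin remodelling. The sources used here do not give the Cre driver, the deleted exons, the alleles that the Brg1 WT animals carried or the number of animals behind a sample. The cells were released with enzymes and filtered, not sorted, as far as the labels say, and markers of Sertoli, stromal and other somatic cells were measured beside those of germ cells.

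Several forkhead factors have known roles in this tissue. FOXO1 marks the stem and progenitor spermatogonia and is needed for their maintenance, FOXJ factors are tied to meiotic germ cells and to motile cilia, and FOXM1 drives the genes of G2 and mitosis in dividing cells. Others, such as FOXF1, FOXC1, FOXC2 and FOXS1, are factors of mesenchyme and vessels. FOXO proteins are kept out of the nucleus when AKT phosphorylates them, so their activity is set largely at the protein level, which was not measured here.

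Library totals were 25213109 to 32596038 estimated counts in Brg1 WT and 20456743 to 27872409 in Brg1 cKO, and their number limits the precision for low genes. Smarca4 was lower in every Brg1 cKO library, with 337.9 to 357 CPM (counts scaled to a common, normalised library total) in Brg1 WT and 111 to 129 CPM in Brg1 cKO (log2 fold change -1.52 ± 0.061 SE, adjusted p = 6.78e-06, edgeR quasi-likelihood test). No cell type marker searched was at 0 in every library. The summed level of 19 Sertoli cell markers ran from 6373 to 8197 CPM in Brg1 WT and from 8164 to 10980 CPM in Brg1 cKO, with 6 of them called higher and 1 lower. That of 15 pan-germ cell markers ran from 2677 to 3337 and from 2064 to 2771 CPM, with 2 called lower. Of all genes tested 8.79% were called higher and 11.8% lower. The 11 Leydig cell markers summed to 63.4 to 75.9 and to 68.5 to 118 CPM (2 called higher), and the 11 macrophage markers to 46.2 to 66.6 and to 42.8 to 89.1 CPM. These sums overlapped between the genotypes, and Clu made up much of the Sertoli cell sum (2808 ± 329 and 4125 ± 667 CPM). Of the Sertoli cell markers 17 had positive and 2 negative log2 fold changes, and of the pan-germ cell markers 1 positive and 14 negative. The balance of germ cell and somatic transcripts may therefore have differed. In bulk RNA fewer cells of a type and less RNA per cell cannot be told apart. The part of this balance in the differences given below was not tested. Late-stage transcripts also varied within Brg1 WT, the 18 pachytene and spermatid genes summing to 309.8 and 273 CPM in replicates 1 and 2 and to 217 and 196 CPM in replicates 3 and 4, against 143 to 160 CPM in Brg1 cKO. With Brg1 WT replicates 3 and 4 alone as controls 2 of the 8 members called below, Foxf1 and Foxn4, were still called by edgeR.

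Promoters are shown for the members that differed between the genotypes and had an entry in the RefSeq promoter table (GRCm38.p6, a later build than that of the files), which was the case for 3 of 8, Foxn4, Foxn3 and Foxo3. The 3 windows differ in CpG content, within the range of the family's entries given below. Each line gives the 250 bases before the RefSeq transcription start, 5′ to 3′ on the minus strand, with CpG dinucleotides in capitals. Foxn4, which fell most of these, lies at chr5:114273762-114274011, Foxn3 at chr12:99450075-99450324 and Foxo3, the most abundant member, at chr10:42276696-42276945.
Foxn4: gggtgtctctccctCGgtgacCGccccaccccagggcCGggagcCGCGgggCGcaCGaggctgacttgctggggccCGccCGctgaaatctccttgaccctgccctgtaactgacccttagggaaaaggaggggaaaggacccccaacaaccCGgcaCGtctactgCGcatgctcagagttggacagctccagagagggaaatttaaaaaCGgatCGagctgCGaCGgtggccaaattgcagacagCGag
Foxn3: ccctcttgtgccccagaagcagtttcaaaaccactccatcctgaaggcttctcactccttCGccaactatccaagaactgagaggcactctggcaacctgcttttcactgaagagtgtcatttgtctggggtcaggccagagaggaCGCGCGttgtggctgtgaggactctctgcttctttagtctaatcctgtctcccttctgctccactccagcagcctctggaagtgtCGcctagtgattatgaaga
Foxo3: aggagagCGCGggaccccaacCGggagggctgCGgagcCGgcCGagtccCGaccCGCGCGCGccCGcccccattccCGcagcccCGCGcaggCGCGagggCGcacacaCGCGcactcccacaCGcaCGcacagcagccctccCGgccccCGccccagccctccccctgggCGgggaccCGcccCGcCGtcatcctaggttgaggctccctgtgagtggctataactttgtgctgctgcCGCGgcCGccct

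These windows held 17 CpG dinucleotides in Foxn4, 5 in Foxn3 and 31 in Foxo3, against a median of 6 over all 32851 promoter entries. The GC content was 62.8% in Foxn4, 52.4% in Foxn3 and 76.4% in Foxo3, with a median of 52.4% over all entries. Across the family 28 of 44 members had an entry, and their 33 entries had a median of 16 CpG dinucleotides and a range of 3 to 48. The forkhead core motif, searched as TGTTTAC and its complement GTAAACA with no overlap with another motif counted, stood in none of the 3 windows shown. It was present in 1 of the 33 member entries (3.03%), that of Foxa1, and in 3.17% of all entries. These letters describe the windows only.

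Levels of different genes are compared as CPM per kb of the longest annotated protein-coding transcript. In Brg1 WT 9 members were above 10 CPM per kb, 12 between 1 and 10, and 23 at or under 1. Foxo3 was the highest at 32.0 ± 0.86 CPM per kb (SD, n = 4), followed by Foxj3 at 24.8 ± 0.69, Foxp4 at 24.0 ± 4.95 and Foxm1 at 19.09 ± 0.62. Foxj3 and Foxp4 did not differ beyond their spread. Foxk2, a broadly expressed regulator of metabolism, had 17.1 ± 0.23, and Foxo1 had 15.0 ± 0.92. Foxo6, Foxj2 and Foxf1 stood close together at 10.6 ± 0.62, 10.3 ± 1.49 and 10.3 ± 1.32. In Brg1 cKO the order moved in named places: Foxm1 went from rank 4 to rank 9, Foxf1 from rank 9 to rank 18, Foxn4 from rank 19 to rank 23 and Foxq1 from rank 11 to rank 7. Foxo3 was highest in both genotypes.

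By subfamily, the O group took 27.31% to 28.81% of the family's summed level per kb in Brg1 WT libraries and 28.55% to 32.68% in Brg1 cKO libraries. The P group took 11.26% to 15.42% and 14.48% to 18.70%, and the J group 15.41% to 16.02% and 14.35% to 16.23%. The F group, nearly all of it Foxf1, went from between 3.91% and 4.88% to between 0.54% and 0.92%. The M group, which has the single member Foxm1, held 7.67% to 9.05% in Brg1 WT and 4.58% to 6.71% in Brg1 cKO. The A, B, D, E, H, I and L groups each stayed under 1% of the summed level in every library.

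**Figure D1:**
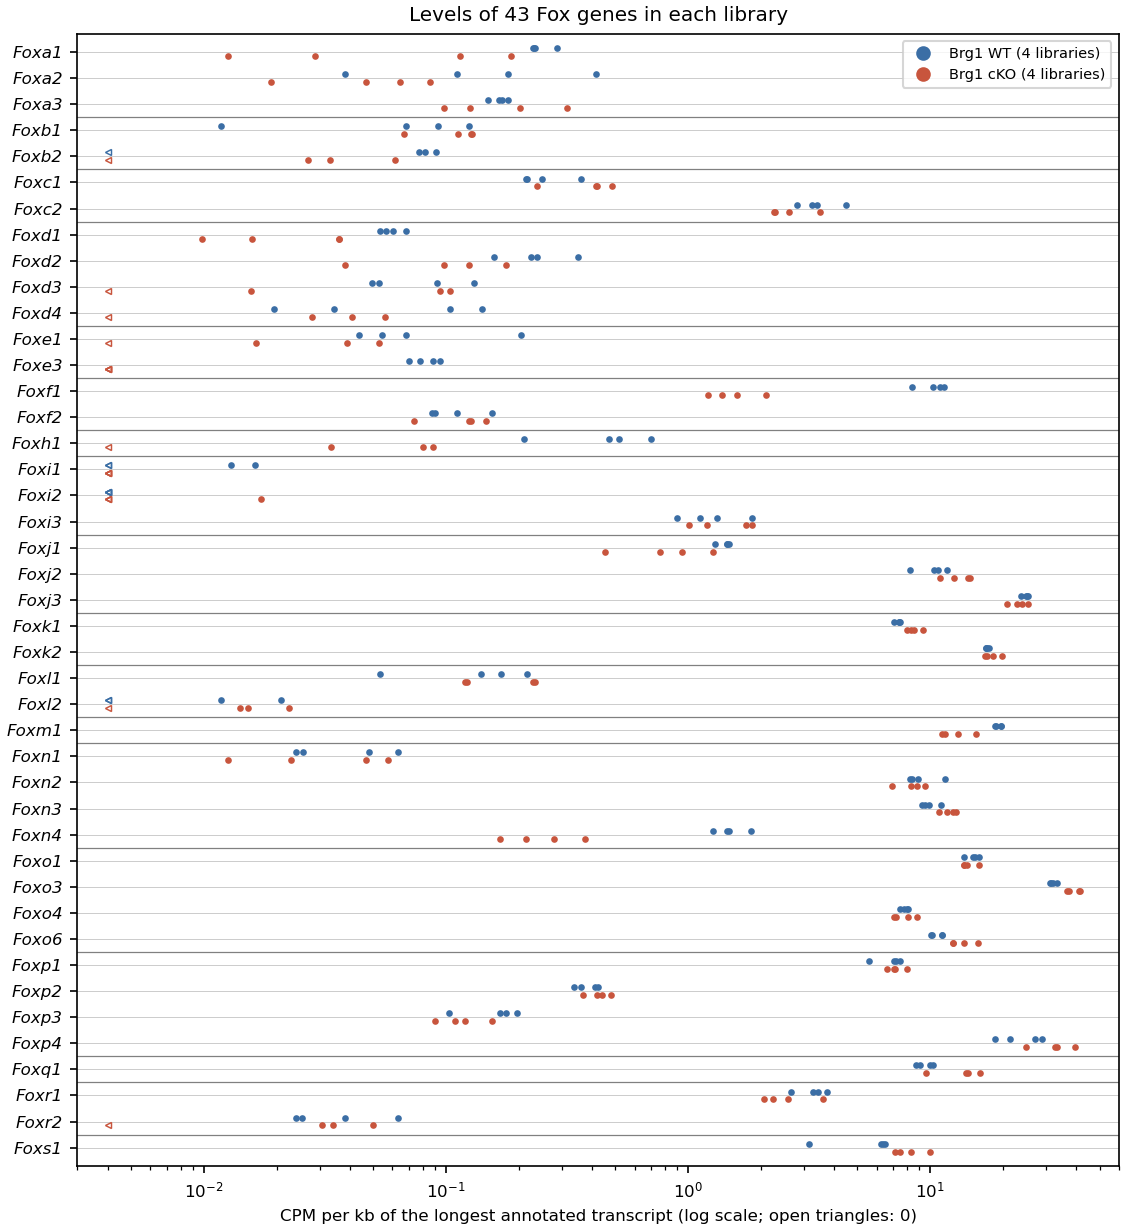
CPM per kb of the longest annotated transcript (log scale) for 43 Fox genes, 1 point per library, Brg1 WT in blue above Brg1 cKO in red, subfamilies parted by grey lines, and open triangles for libraries at 0. Foxo3 is highest in both genotypes, and Foxf1 and Foxn4 stand clearly apart between the genotypes.

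Of the 44 members 28 passed the filter on low counts and were tested. At an adjusted p under 0.05, 3 were lower in Brg1 cKO (Foxf1, Foxm1 and Foxn4) and 5 were higher (Foxk1, Foxn3, Foxo3, Foxo6 and Foxq1), and 20 were not called. Across all 16059 genes tested 20.6% were called, 11.8% lower and 8.79% higher. The share of called Fox genes, 28.6% of those tested, lies near that background, so the count by itself is not a result about the family. Its median log2 fold change over the tested members was 0.03, and that of all tested genes 0.01. Foxf1 and Foxn4 were among the 62 genes (0.386% of those tested) that fell at least 4-fold. The split of directions depends on the level taken as no change: relative to the median of the pan-germ cell markers (-0.33) 15 members were called higher and 2 lower, and relative to that of the Sertoli cell markers (0.37) none was called higher and 15 lower. Over all genes those splits were 7877 higher and 629 lower, and 77 higher and 8336 lower, against 1412 and 1900 with TMM.

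**Figure D2:**
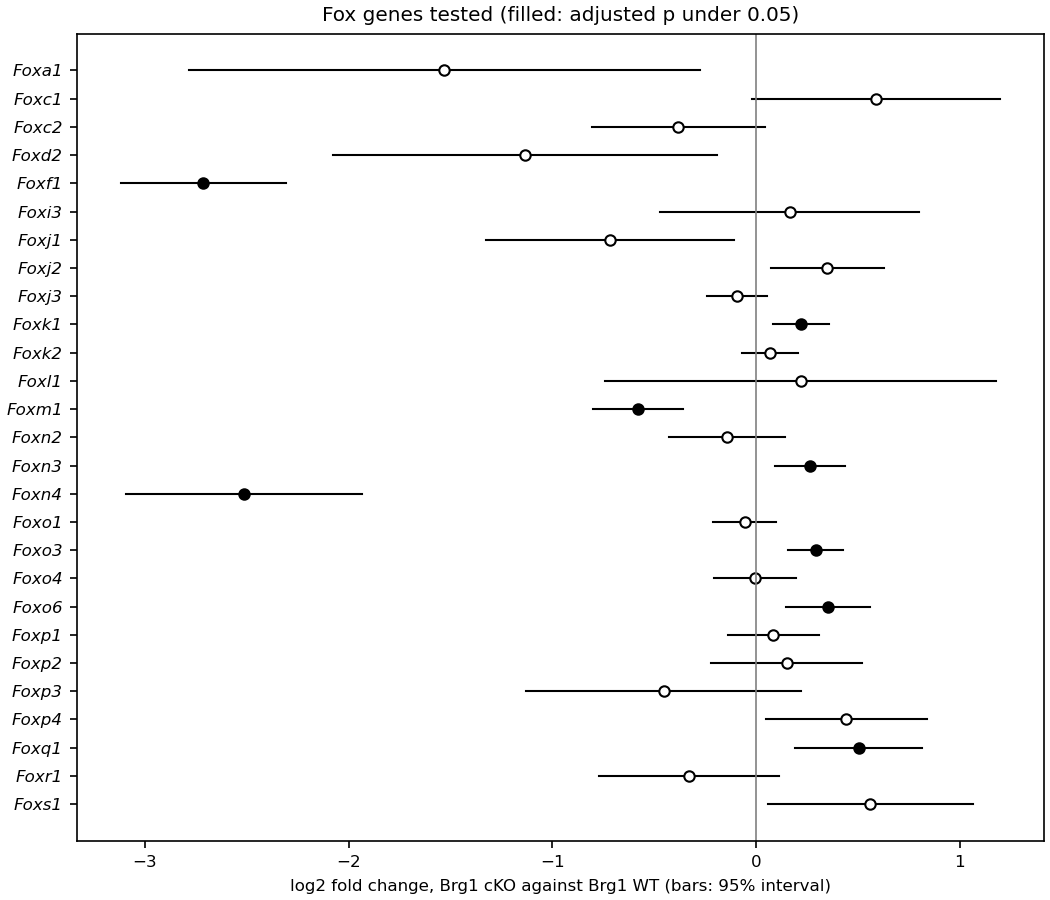
Log2 fold change of Brg1 cKO against Brg1 WT (horizontal axis) for 27 of the Fox genes tested, with 95% intervals, filled points for an adjusted p under 0.05. Foxf1 at -2.71 and Foxn4 at -2.51 lie far below 0, Foxm1 at -0.58, and the 5 called rises between 0.22 and 0.50, of which all but Foxq1 turn sign relative to the Sertoli cell median.

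Foxf1 encodes a factor of visceral and vascular mesenchyme. It had 20.3, 27.5, 26.5 and 24.8 CPM in Brg1 WT replicates 1 to 4, and 5.04, 3.83, 2.93 and 3.31 CPM in Brg1 cKO replicates 1 to 4. All 4 Brg1 cKO libraries were low, and the lowest Brg1 WT library was well above them. The log2 fold change was -2.71 ± 0.18 (SE, adjusted p = 1.82e-04, edgeR quasi-likelihood test), a 6.56-fold fall, and it was called in each of 21 alternative fits (adjusted p at most 0.0065). The 15 peritubular myoid and stromal markers summed to 1667 to 2837 CPM in Brg1 WT and to 2356 to 3870 CPM in Brg1 cKO. Of these 15 markers 13 had positive and 2 negative log2 fold changes, with a list median of 0.43. The 3 called higher were Pdgfra, from 115 ± 25.6 to 235 ± 52.5 CPM (log2 fold change 1.03, adjusted p = 0.014), Nr2f2 and Mgp. The 1 called lower was Actg2, a smooth muscle actin, from 16.9 ± 2.74 to 7.69 ± 1.70 CPM (log2 fold change -1.14, adjusted p = 0.00527). The 12 endothelial markers summed to 201 to 313 CPM and to 212 to 498.5 CPM, with none called by edgeR, DESeq2 or limma-voom and 0 at an unadjusted p under 0.05. The Brg1 WT library with the lowest stromal and endothelial sums, replicate 1, was also the one with the lowest Foxf1, and the part of stromal and vascular cells in its fall was not tested.

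In mouse Foxf1 lies in a cluster with Foxc2 and Foxl1, the coding gene Mthfsd standing between Foxf1 and Foxc2 in the GENCODE M21 gene order. These neighbours did not share the size of the fall. Foxc2, a factor of mesenchyme and lymphatic vessels, had 7.69, 12.3, 8.80 and 9.24 CPM in Brg1 WT replicates 1 to 4 and 6.22, 7.11, 9.58 and 6.18 CPM in Brg1 cKO replicates 1 to 4. The libraries overlapped, and its log2 fold change of -0.38 (95% interval -0.81 to 0.04) was not called (adjusted p = 0.175). Foxl1, a target of hedgehog signalling in gut mesenchyme, was near the limit of detection at 0.39 ± 0.19 and 0.48 ± 0.17 CPM (SD, n = 4 each). Mthfsd rose from 9.74 ± 0.48 to 13.2 ± 1.23 CPM (log2 fold change 0.44, adjusted p = 0.0185). The 95% intervals of Foxf1 (-3.12 to -2.31) and Foxc2 did not meet. The long RNA Fendrr, which starts beside Foxf1, is not analysed here.

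A second cluster holds Foxq1, Foxf2 and Foxc1 in that order, with Gmds beside Foxc1. Foxq1, known from epithelia and hair follicles, had 42.2, 43.9, 48.3 and 49.5 CPM in Brg1 WT replicates 1 to 4 and 67.9, 46.6, 69.0 and 77.5 CPM in Brg1 cKO replicates 1 to 4. Brg1 cKO replicate 2 lay within the Brg1 WT range and the other 3 lay above it. Foxq1 was called higher (log2 fold change 0.50 ± 0.14 SE, adjusted p = 0.0335), with 0.64 and an adjusted p = 0.0031 without that library, but it was not called when any of the other 7 libraries was left out (adjusted p up to 0.0876), by limma-voom (adjusted p = 0.0513) or against Brg1 WT replicates 3 and 4 alone (0.42, adjusted p = 0.231). Foxc1 had 1.52 ± 0.41 and 2.28 ± 0.62 CPM, a log2 fold change of 0.59 with a 95% interval of -0.02 to 1.20 (adjusted p = 0.147). Foxf2, the nearest paralog of Foxf1, had only 0.26 ± 0.07 and 0.28 ± 0.07 CPM and was not tested. Gmds, which encodes an enzyme of GDP-fucose synthesis, fell from 21.3 ± 1.20 to 12.5 ± 1.31 CPM (log2 fold change -0.77, adjusted p = 0.0025), while Exoc2, farther out on that chromosome, was at 60.3 ± 2.14 and 64.6 ± 2.98 CPM (adjusted p = 0.239).

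Foxs1, the remaining mesenchymal member above 5 CPM, is expressed in cells around vessels. It had 4.15, 8.32, 8.56 and 8.22 CPM in Brg1 WT replicates 1 to 4 and 10.9, 9.37, 13.0 and 9.84 CPM in Brg1 cKO replicates 1 to 4. The groups did not overlap, but the difference of 0.56 on the log2 scale (95% interval 0.06 to 1.06) missed the threshold after adjustment (adjusted p = 0.102). Brg1 WT replicate 1 was low for Foxs1, as it was for the sum of stromal markers. Groups did not overlap for 26.1% of all tested genes (15% lower and 11.1% higher in Brg1 cKO) and for 9 of the 28 tested members (5 lower and 4 higher).

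Hedgehog ligands are known inducers of Foxf1, Foxf2 and Foxl1 in mesenchyme, and Dhh is the ligand made by Sertoli cells. Of 15 tested genes of the hedgehog pathway 4 rose, 2 fell and 9 were not called, with a list median of 0.18. Across all tested genes 8.79% were called higher and 11.8% lower. Dhh rose from 110.8 ± 13.2 to 159 ± 18.3 CPM (log2 fold change 0.52, adjusted p = 0.0103). Kif7, a ciliary regulator of GLI proteins, fell from 29.5 ± 1.13 to 21.4 ± 2.43 CPM (adjusted p = 0.0112) and Gli2, a GLI transcription factor, from 14.5 ± 2.66 to 9.08 ± 1.12 CPM (adjusted p = 0.0173). The other called genes, Smo, Ptch1 and Gas1, were higher. The 16 pathway genes summed to 441 to 547 CPM in Brg1 WT and to 587 to 672 CPM in Brg1 cKO, a sum to which Dhh, itself one of the Sertoli cell markers, adds much. Whether hedgehog signalling bears on Foxf1 here was not tested. Leaving out Brg1 WT replicate 1 left 2 pathway genes called higher, and leaving out replicate 2 of Brg1 WT or replicate 1 or 3 of Brg1 cKO left 1. Without Brg1 WT replicates 1 and 2 edgeR called no pathway gene higher (6 at an unadjusted p under 0.05, 4 by DESeq2) and 1 lower.

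Foxn4 encodes a factor known from retinal progenitors and spinal interneurons. Its 8 libraries fell into separate groups, with 4.45, 3.83, 4.34 and 5.46 CPM in Brg1 WT replicates 1 to 4 and 0.50, 1.13, 0.84 and 0.64 CPM in Brg1 cKO replicates 1 to 4. A Brg1 WT library held 100 to 142 estimated counts of it, and a Brg1 cKO library 11 to 31. The log2 fold change was -2.51 ± 0.26 (SE, adjusted p = 0.00105), and each of the 21 alternative fits called it (adjusted p at most 0.0183). The other N members behaved differently. Foxn3, a checkpoint repressor, rose from 76.6 ± 6.09 to 92.0 ± 6.79 CPM (log2 fold change 0.26, adjusted p = 0.0368), with Brg1 WT replicate 4 at 85.3 CPM above Brg1 cKO replicate 2 at 83.3 CPM. That rise was lost in 6 of the 8 fits that left out 1 library (it held without Brg1 cKO replicate 2 and without Brg1 WT replicate 4), and it was 0.19 with an adjusted p = 0.248 against Brg1 WT replicates 3 and 4 alone and -0.10 relative to the Sertoli cell median. Foxn2 had 47.1 ± 7.72 and 42.7 ± 5.50 CPM (log2 fold change -0.14, 95% interval -0.43 to 0.14, adjusted p = 0.439), and Foxn1, the factor of thymic epithelium, had at most 6 estimated counts in a library.

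Foxm1 drives the transcription of genes for G2 and mitosis. It had 91.5, 91.1, 86.9 and 85.7 CPM in Brg1 WT replicates 1 to 4 and 51.8, 71.8, 53.4 and 60.3 CPM in Brg1 cKO replicates 1 to 4. The Brg1 WT libraries were close together and all lay above the Brg1 cKO libraries, of which replicate 2 was the highest. The log2 fold change was -0.58 ± 0.099 (SE, adjusted p = 0.00599), and -0.54 with an adjusted p = 0.0685 against Brg1 WT replicates 3 and 4 alone. Relative to the pan-germ cell median it was -0.26 and no longer called (adjusted p = 0.0511), and relative to the median of the undifferentiated spermatogonia markers (-0.69) it was 0.11. A list of 24 genes held known targets of FOXM1 and the DREAM complex and the complex's own subunits Lin9, Lin37 and Lin54. Of these 24, 12 were called lower, 12 were not called and none was called higher (0 at an unadjusted p under 0.05), where 11.8% of all genes were lower. The number called lower was 7 without Brg1 cKO replicate 1 and 19 without Brg1 cKO replicate 2. All 24 had negative log2 fold changes, with a median of -0.37. Plk1, the mitotic kinase, fell from 34.4 ± 2.27 to 22.4 ± 2.95 CPM (adjusted p = 0.00545), Top2a, which untangles chromosomes, from 430 ± 47.8 to 297 ± 23.8 CPM, and Nek2, a centrosome kinase, from 63.9 ± 9.76 to 40.9 ± 5.58 CPM. Like Foxm1, the summed level of the list was highest in replicate 2 among the Brg1 cKO libraries, with 1621 CPM there, 1229 to 1417 CPM in the other 3 and 1737 to 2127 CPM in Brg1 WT. The sum of pan-germ cell markers was also highest in that library, with 2771 CPM against 2064 to 2583 CPM in the other 3, and the part of germ cell share in these falls was not tested. Without Brg1 WT replicates 1 and 2 a single gene of the list was called lower (13 at an unadjusted p under 0.05, 6 by DESeq2), and 438 of all genes (2.66%, 2.08% lower) were called.

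**Figure D3:**
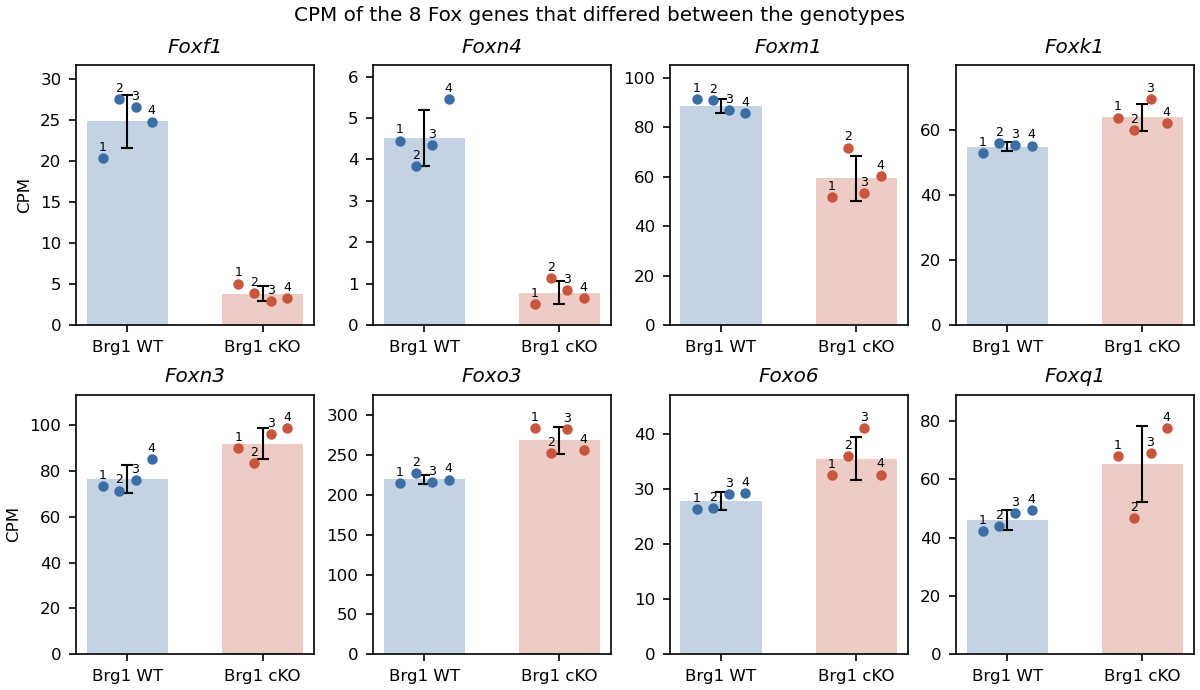
CPM (vertical axis, from 0) of the 8 Fox genes that differed, with a point per library numbered by replicate, bars for the mean and error bars for the SD (n = 4). Foxf1, Foxn4 and Foxm1 are separated downward in Brg1 cKO, and in Foxq1 and Foxn3 at least 1 library of a genotype lies within the range of the other.

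The O subfamily carries the largest share of the family's transcripts. Foxo3, known for holding ovarian follicles at rest, had 214.6, 228, 216 and 219 CPM in Brg1 WT replicates 1 to 4 and 283, 252, 283 and 256 CPM in Brg1 cKO replicates 1 to 4. The groups did not overlap, and the rise of 0.29 ± 0.060 on the log2 scale (SE, adjusted p = 0.0119) amounts to 1.22-fold. Foxo6, best known from brain, had 26.3, 26.5, 29.1 and 29.3 CPM and 32.5, 35.9, 40.9 and 32.6 CPM in the same order (log2 fold change 0.35 ± 0.091 SE, adjusted p = 0.0257). It too had no overlap. Foxo1, the spermatogonial member, had 119, 137.9, 129.6 and 133 CPM and 119.6, 137.7, 119.2 and 123 CPM. Its libraries overlapped fully, with a log2 fold change of -0.06 and a 95% interval of -0.21 to 0.10 (adjusted p = 0.58). In the same libraries 11 of 20 markers of undifferentiated spermatogonia fell and 2 rose, with a list median of -0.69. Among all tested genes 11.8% were called lower and 8.79% higher. X-linked Foxo4 had 24.8 ± 0.87 and 24.7 ± 2.58 CPM (95% interval of the log2 fold change -0.21 to 0.19).

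The rises of Foxo3 and Foxo6 depended on the level taken as no change. Relative to the median of the Sertoli cell markers, which was 0.37, the log2 fold changes were -0.08 for Foxo3 and -0.02 for Foxo6, and neither was called. Without Brg1 WT replicates 1 and 2 Foxo3 had 0.31 (adjusted p = 0.0912) and Foxo6 0.28 (adjusted p = 0.186). Foxo3 remained called when any single library was left out (adjusted p at most 0.0396), and Foxo6 was lost in 3 of 8 such fits, those without Brg1 WT replicate 1, Brg1 WT replicate 2 or Brg1 cKO replicate 3.

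Genes that act on FOXO proteins moved in both directions. Of 29 regulators, among them the PI3K, AKT and 14-3-3 genes, 6 rose, 2 fell and 21 were not called, with a list median of 0.05. Insr, the insulin receptor, rose from 40.8 ± 2.36 to 59.3 ± 3.22 CPM (log2 fold change 0.54, adjusted p = 0.00229) and Ywhag, a 14-3-3 protein, from 209.9 ± 12.2 to 265 ± 19.9 CPM (adjusted p = 0.013). Pik3cd, a catalytic subunit of PI3K, fell from 27.3 ± 2.55 to 16.3 ± 2.81 CPM (adjusted p = 0.00691). Of 27 tested genes known as FOXO targets in other tissues 6 rose, none fell (0 at an unadjusted p under 0.05) and 21 were not called, with a median of 0.19. Gabarapl1 and Map1lc3b, both of autophagy, rose from 81.5 ± 7.80 to 107.6 ± 9.30 CPM (adjusted p = 0.0137) and from 212 ± 14.6 to 253 ± 5.65 CPM (adjusted p = 0.0193), and Cited2, a transcriptional coregulator, from 155 ± 17.0 to 213 ± 23.6 CPM (adjusted p = 0.0142). Among all genes 8.79% were called higher. Leaving out replicate 1 of Brg1 cKO left 3 regulators and 2 targets called higher, and leaving out replicate 2 of Brg1 WT also left 3 regulators. With Brg1 WT replicates 3 and 4 alone as controls edgeR called 1 regulator and no target higher (7 and 5 at an unadjusted p under 0.05, 3 and 4 by DESeq2).

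In the J subfamily Foxj3, a germ cell member needed for meiosis, was not called, at 119 ± 3.30 and 111 ± 9.20 CPM (log2 fold change -0.09, 95% interval -0.24 to 0.06, adjusted p = 0.332). Foxj2 had 43.4, 54.9, 62.1 and 56.7 CPM in Brg1 WT replicates 1 to 4 and 77.2, 58.0, 65.9 and 75.7 CPM in Brg1 cKO replicates 1 to 4. The groups overlapped through Brg1 cKO replicate 2, and the difference of 0.35 was not called (adjusted p = 0.0709) but was called without that library (0.43, adjusted p = 0.0355). Foxj1, the activator of motile cilia genes, had 3.88, 3.80, 3.79 and 3.38 CPM and 2.47, 3.32, 2.01 and 1.19 CPM. Every Brg1 cKO library lay below every Brg1 WT library, by a small margin in replicate 2, with a log2 fold change of -0.72 (95% interval -1.33 to -0.11, adjusted p = 0.0882) that was called without Brg1 cKO replicate 2 (-0.97, adjusted p = 0.0279).

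Of 22 tested genes of motile cilia, many of which also serve the sperm flagellum, 11 fell, 1 rose and 10 were not called, with a median of -0.71, where 11.8% of all genes were lower and 8.79% higher. The number called lower was 5 to 7 when Brg1 WT replicate 1, 2 or 3 or Brg1 cKO replicate 1 or 3 was left out. Hydin, a protein of the central pair of microtubules, fell from 5.92 ± 0.70 to 1.25 ± 0.28 CPM (log2 fold change -2.25, adjusted p = 5.83e-04), Dnaic1, a dynein arm subunit, from 2.55 ± 0.94 to 0.74 ± 0.30 CPM (adjusted p = 0.0127) and Ccdc40, which sets the spacing of the axoneme, from 9.99 ± 1.22 to 5.80 ± 1.27 CPM (adjusted p = 0.014). The exception was Myb, a transcription factor also of blood progenitors, which rose from 0.25 ± 0.17 to 1.28 ± 0.39 CPM (adjusted p = 0.0205). Myb passed the filter through its Brg1 cKO libraries, with 0 to 0.38 CPM in Brg1 WT and 0.78 to 1.72 CPM in Brg1 cKO. In the same way Dnaic1, Tekt1, Mcidas and Dnah5, all called lower, passed it through their Brg1 WT libraries. Their lowest Brg1 cKO libraries had 0.36, 0.33, 0.25 and 0.18 CPM. The count of falls and the list median include these genes, which limits their comparison with the share over all genes. The summed level of the list was 151 and 153 CPM in Brg1 WT replicates 1 and 2, 121 and 112 CPM in replicates 3 and 4 and 93.4 to 99.3 CPM in Brg1 cKO. Much of the drop within Brg1 WT lay in Rsph1, not called, with 43.5, 42.2, 23.7 and 17.8 CPM in replicates 1 to 4. Of the falls named above Dnaic1 dropped the same way (3.44, 3.26, 1.96 and 1.55 CPM). Hydin (4.93, 6.13, 6.08 and 6.55 CPM) and Ccdc40 (9.41, 10.2, 11.6 and 8.75 CPM) did not. The sum of pachytene and spermatid genes, 7 of whose 11 tested members fell, was also higher in Brg1 WT replicates 1 and 2 than in 3 and 4. The part of these genes in the falls was not tested. Without Brg1 WT replicates 1 and 2 a single cilia gene was called lower (10 at an unadjusted p under 0.05, 4 by DESeq2). Markers of the rete testis and efferent ducts, an epithelium with motile cilia, summed to 88.8 to 103 CPM in Brg1 WT and 64.0 to 90.8 CPM in Brg1 cKO. Epcam alone made up most of these sums, with 79.5 to 89.4 and 48.8 to 78.4 CPM. Of the 8 tested genes of the list 6 had positive and 2 negative log2 fold changes, with a median of 0.24. None of the 8 was called by edgeR, with 1 at an unadjusted p under 0.05 and 1 called by DESeq2.

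**Figure D4:**
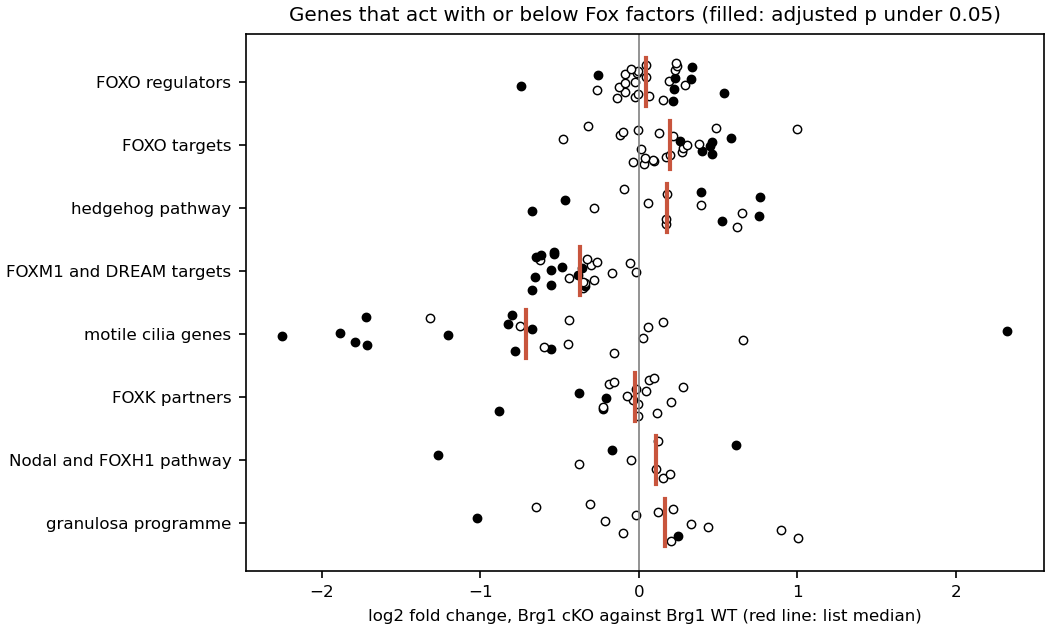
Log2 fold change of Brg1 cKO against Brg1 WT (horizontal axis) for tested genes of 8 lists tied to Fox factors, filled for an adjusted p under 0.05, with red lines at list medians. All 24 genes of the FOXM1 and DREAM list lie below 0 around a median of -0.37, and the motile cilia genes reach from -2.25 to 2.33.

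The K subfamily binds the BAP1 deubiquitinase complex, which opposes Polycomb-linked ubiquitination of histone H2A, and the SIN3 corepressor. Foxk1 had 52.9, 55.8, 55.3 and 55.1 CPM in Brg1 WT replicates 1 to 4 and 63.7, 59.8, 69.4 and 62.2 CPM in Brg1 cKO replicates 1 to 4. The groups did not overlap, and the rise was small, 0.22 ± 0.061 on the log2 scale (SE, adjusted p = 0.0337), and was lost in 6 of the 8 fits that left out 1 library (adjusted p up to 0.0792), the exceptions being those without Brg1 cKO replicate 2 or 4. The call was also lost with the edgeR exact test (adjusted p = 0.0598), without a filter (adjusted p = 0.0507) and against Brg1 WT replicates 3 and 4 alone (0.21, adjusted p = 0.178). Relative to the Sertoli cell median it was -0.15. Foxk2 had 86.1 ± 1.17 and 90.2 ± 6.60 CPM (95% interval of the log2 fold change -0.07 to 0.20, adjusted p = 0.446). Among 18 partner genes 4 were called lower, 14 were not called and none was called higher (1 at an unadjusted p under 0.05), with a median of -0.03, where 11.8% of all genes were lower. The number called lower was 2 when Brg1 WT replicate 1 or 2 or Brg1 cKO replicate 1 or 3 was left out, and 1 against Brg1 WT replicates 3 and 4 alone (4 at an unadjusted p under 0.05). Asxl3, a BAP1 cofactor, fell from 10.7 ± 0.76 to 5.80 ± 0.73 CPM (log2 fold change -0.88, adjusted p = 0.00341), Kdm1b, a histone demethylase, from 60.8 ± 4.95 to 46.7 ± 3.67 CPM (adjusted p = 0.0133) and Bap1 from 113.7 ± 6.26 to 97.2 ± 4.06 CPM (adjusted p = 0.0266).

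In the P subfamily, a group of repressors, no member was called by edgeR, and DESeq2 called Foxp4. Foxp4 had 73.7, 84.9, 108.6 and 116 CPM in Brg1 WT replicates 1 to 4 and 130.8, 99.2, 133 and 158 CPM in Brg1 cKO replicates 1 to 4. Brg1 WT replicates 1 and 2 were lower than 3 and 4, and the groups overlapped. Its difference of 0.44 (95% interval 0.05 to 0.84, adjusted p = 0.101) was called without Brg1 cKO replicate 2 (0.56, adjusted p = 0.045). Foxp1 had 49.0 ± 6.09 and 51.9 ± 4.22 CPM, Foxp2, the gene linked to speech, 2.59 ± 0.28 and 2.88 ± 0.31 CPM, and Foxp3, the factor of regulatory T cells, 0.61 ± 0.16 and 0.45 ± 0.10 CPM. Foxr1, from a subfamily with testis expression, had 6.46 ± 0.89 and 5.15 ± 1.36 CPM (log2 fold change -0.33, adjusted p = 0.252). Foxi3, a factor of ear and skin placodes, had 1.65 ± 0.51 and 1.84 ± 0.51 CPM (adjusted p = 0.701).

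Brg1 cKO replicate 2 stood closest to Brg1 WT among the Brg1 cKO libraries for Foxm1, Foxn4, Foxq1, Foxj1, Foxj2, Foxp4, Foxo3, Foxk1 and Foxn3, a pattern noticed after the values were seen. It also had the highest sums of pan-germ cell and undifferentiated spermatogonia markers of the Brg1 cKO libraries and the lowest Sertoli cell sum. Among called members it was not closest for Foxf1, where replicate 1 was highest, or for Foxo6, where replicates 1 and 4 were lower. Without it 12 of 29 tested members were called in place of 8 of 28, all 8 among them, with Foxh1, Foxj1, Foxj2 and Foxp4 added. Of all genes 3477 of 16230 were called in that fit, against 3312 of 16059 in the main fit. Foxh1 passed the filter there through its Brg1 WT libraries and was not tested in the main fit.

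Within-library ratios of the 2 most abundant tested members of a subfamily do not depend on how libraries are scaled. In 4 of 6 subfamilies with such a pair the log2 ratio did not overlap between the genotypes. How often this holds for other pairs of genes was not counted, so this number is not a result about these subfamilies. The ratio of Foxo3 to Foxo1 was 0.76 ± 0.062 in Brg1 WT and 1.11 ± 0.18 in Brg1 cKO (SD, n = 4 each), an increase of 0.35 (exact two-sided permutation p = 0.0286, the smallest that 70 assignments allow, and 0.0429 adjusted over the 6 ratios). The ratio of Foxj3 to Foxj2 fell by 0.45, from 1.14 ± 0.18 to 0.69 ± 0.092, that of Foxk2 to Foxk1 fell by 0.15, from 0.65 ± 0.029 to 0.50 ± 0.038, and that of Foxc2 to Foxc1 fell by 0.96, from 2.66 ± 0.22 to 1.70 ± 0.42, each with the same exact permutation p. The ratios of Foxn3 to Foxn2 and of Foxp4 to Foxp1 overlapped, with differences of 0.40 and 0.36 (exact permutation p = 0.0571 and 0.143). In these libraries the paired genes of the O, J, K and C groups thus differed by unequal amounts whatever the scaling. Of these 8 genes 6 were not called singly, and Foxc1 had only 28.1 to 78 estimated counts in a library. A ratio is not free of the balance of germ cell and somatic transcripts, and the part of that balance in these differences was not tested.

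**Figure D5:**
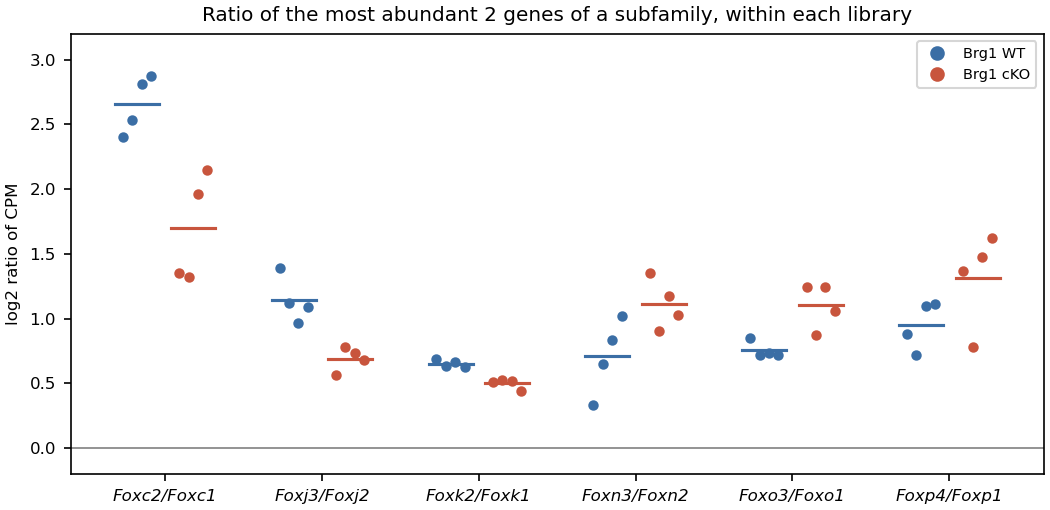
Log2 ratio of CPM (vertical axis) between the 2 most abundant tested members of each subfamily with such a pair, 1 point per library and lines for the mean of 4. The Brg1 WT and Brg1 cKO points do not overlap for Foxc2 to Foxc1, Foxj3 to Foxj2, Foxk2 to Foxk1 and Foxo3 to Foxo1.

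The 16 members that did not pass the filter summed to between 1 and 81 estimated counts over the 8 libraries, with at most 29 in a single library. They included Foxl2, the factor of ovarian granulosa cells, with at most 2 counts in a library, Foxi1 and Foxi2, factors of ion-transporting and ectodermal cells, with at most 1, and Foxa2 and Foxa3, pioneer factors of endoderm, with at most 29 and 13. The libraries of the genotypes overlapped for all of them but 3, Foxh1, Foxd1 and Foxe3, each of which was lower in every Brg1 cKO library. The share of such genes among all those that failed the filter was not counted, so this number is not a result about these members.

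Foxh1 encodes the DNA-binding partner of SMAD proteins in Nodal signalling. Replicates 1 to 4 held estimated counts of 21, 25, 21 and 7 for Brg1 WT and 1, 3, 3 and 0 for Brg1 cKO, or 0.65 ± 0.28 and 0.07 ± 0.06 CPM. Without a filter on low counts edgeR gave it a log2 fold change of -3.08 with an adjusted p = 0.00958, in a fit that called 12.4% of 22997 genes (7.33% lower). Foxd1, a stromal factor of the kidney, had 0.27 to 0.35 CPM in Brg1 WT and 0.05 to 0.18 CPM in Brg1 cKO (adjusted p = 0.128 without a filter). Foxe3, a lens factor, had 2 counts in every Brg1 WT library and 0 in every Brg1 cKO library, and no fold is given.

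Of the Nodal pathway genes Nodal itself and its coreceptor Tdgf1 did not pass the filter, and of 9 tested genes 1 rose, 2 fell and 6 were not called, where 20.6% of all genes were called. The number called lower was 1 by DESeq2, by the exact test, with RLE factors and with either other filter setting, and 0 without any one of Brg1 WT replicates 1, 2 and 4 and Brg1 cKO replicates 3 and 4. Against Brg1 WT replicates 3 and 4 alone edgeR called none higher and none lower (1 and 2 at an unadjusted p under 0.05, 1 and 0 by DESeq2). Smad3 rose from 50.8 ± 6.57 to 77.8 ± 11.2 CPM (adjusted p = 0.0104), and Smad2 fell from 94.9 ± 2.55 to 84.4 ± 2.82 CPM (adjusted p = 0.0414). Lefty2, a Nodal antagonist, fell from 0.62 ± 0.14 to 0.25 ± 0.09 CPM (adjusted p = 0.0286). It was near the limit of detection and passed the filter only through its Brg1 WT libraries, at 0.45 to 0.78 CPM against 0.17 to 0.37 CPM in Brg1 cKO. Its call is therefore not taken as a result about the pathway. For the female somatic programme that FOXL2 upholds, 1 of 14 tested genes rose, 1 fell and 12 were not called, where 8.79% of all genes were higher and 11.8% lower. The rise was lost when Brg1 WT replicate 1, 2 or 3 or Brg1 cKO replicate 1 was left out. Lef1, a WNT effector, fell from 5.41 ± 1.30 to 2.66 ± 0.22 CPM (adjusted p = 0.00909) and Ctnnb1, which encodes beta-catenin, rose from 609 ± 34.4 to 722 ± 30.1 CPM (adjusted p = 0.0302).

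Foxa1 and Foxd2, the tested members with the next largest falls in fitted size, rest on few reads. Both passed the filter through their Brg1 WT libraries, so their falls are not taken as results about these members. For Foxa1, a pioneer factor, the estimated counts of replicates 1 to 4 were 22, 19, 30 and 18 for Brg1 WT and 2, 10, 1 and 12 for Brg1 cKO. The groups did not overlap, and its log2 fold change of -1.53 (95% interval -2.78 to -0.28) was not called by the edgeR quasi-likelihood test (adjusted p = 0.0787) but was called by limma-voom and by the edgeR exact test. Foxd2 had 0.63 ± 0.21 and 0.28 ± 0.15 CPM, with a log2 fold change of -1.13 (95% interval -2.08 to -0.19, adjusted p = 0.0824).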

How the data were processed

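The authors deposited estimated counts, 1 value per gene symbol and library, with no scaling by depth or length. Kallisto 0.42.5, edgeR and the build mm9 are named in the submitters' processing notes, while the annotation and how transcripts were summed to symbols are not given there. Estimated counts were rounded, filtered with filterByExpr by genotype (16059 of 28460 genes kept), normalised (TMM) and compared by edgeR 4.0.16 with its quasi-likelihood test (R 4.3.3, robust, genotype as the single term), with p-values adjusted over all tested genes by the Benjamini-Hochberg method and a threshold of 0.05. Standard errors are the size of the log2 fold change over the square root of F, and 95% intervals use the t distribution of the fit. CPM are means ± SD on TMM-scaled totals. Transcript lengths and gene order came from GENCODE M21 (GRCm38), matched by symbol for all 44 members, without coordinates, since the files' build differs, and the promoter windows are given in GRCm38.p6 coordinates. The steps were tested on simulated data. No pair of libraries of a genotype agreed within sampling noise (lowest chi-square per degree of freedom 21.5).

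The members and gene lists were chosen with earlier results of these data known. Named were every called member, the most abundant tested member of each subfamily, up to 3 called genes with the smallest adjusted p of each list, and the genes beside Fox genes found in the table. The values of 1 member are not reported here, and counts over the family include it. Other members and list genes were named after their values were seen. Foxl2os, Foxd2os, Foxo6os and Fendrr are not analysed here. Alternatives were DESeq2 1.42.0, limma-voom (limma 3.58.1), RLE or upper-quartile factors, edgeR's exact test, unrounded counts, no filter, at least 1 CPM in at least 4 libraries, the replicate number as a block, leaving out each library, Brg1 WT replicates 3 and 4 alone as controls, and list medians taken as no change.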

Additional observations from a re-analysis of the deposited data

Results flagged for a closer look

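The level of 2 tested members in 1 library lay far from the other 3 libraries of its genotype, among 54 groups of 4 libraries checked, where chance flags about 1 group in 20. Foxa1 had 0.917 CPM in Brg1 WT replicate 3, with 0.73 to 0.74 CPM in the other 3 of that genotype. Foxs1 had 4.15 CPM in Brg1 WT replicate 1, with 8.22 to 8.56 CPM in the others, and without that library its log2 fold change was 0.37 (adjusted p = 0.11).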

How the results depend on the processing

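Smarca4, Foxf1 and Foxn4 were called lower in all 21 alternative fits, with values of -1.89 to -0.83, -3.08 to -2.02 and -2.88 to -1.83 on the log2 scale. The number of members called lower was 3 to 5 and the number called higher 1 to 7 when single libraries were left out. Those fits called 1608 to 3477 of all genes. With Brg1 WT replicates 3 and 4 alone as controls edgeR called 438 genes in all and no member higher (0 by limma-voom, 1 by DESeq2, both chosen after seeing the data, and 4 at an unadjusted p under 0.05). The level taken as no change mattered most. Members called higher numbered 15 with the pan-germ cell median (-0.33) as no change, 17 with that of undifferentiated spermatogonia (-0.69) and 0 with that of Sertoli cells (0.37), where 15 were called lower. Signs that turned were, on the pan-germ cell scale, Foxj3 0.23, Foxn2 0.18, Foxo1 0.27 and Foxo4 0.32, on the Sertoli cell scale, Foxi3 -0.20, Foxj2 -0.0186, Foxk1 -0.15, Foxk2 -0.30, Foxl1 -0.15, Foxn3 -0.10, Foxo3 -0.0764, Foxo6 -0.0156, Foxp1 -0.28 and Foxp2 -0.22, and on the spermatogonial scale, Foxc2 0.31, Foxj3 0.60, Foxm1 0.11, Foxn2 0.55, Foxo1 0.63, Foxo4 0.68, Foxp3 0.23 and Foxr1 0.36. With Brg1 WT replicates 3 and 4 alone, Foxl1 -0.0343, Foxn2 0.0133 and Foxp1 -0.0033 turned sign. Foxo4 had 0.0059 by DESeq2, 0.0052 with RLE factors and 0.0011 with the CPM filter, and without single libraries Foxo4 ranged from -0.0698 to 0.0402, Foxp1 from -0.0021 to 0.13 and Foxl1 from -0.026 to 0.49. The cause was not tested.

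The shared replicate numbers were not taken as pairs. Deviations of same-numbered libraries correlated at -0.21, 0.13, -0.37 and 0.15, which cannot exclude a pairing. With a replicate block 1914 genes were called in place of 3312, and among members 3 lower and 4 higher, with Foxk1 (0.22, adjusted p = 0.0886) and Foxo6 (0.35, adjusted p = 0.0508) lost and Foxp4 (0.45, adjusted p = 0.041) gained. DESeq2 called 4455 genes and 10 members, the 8 and Foxj2 and Foxp4. P-values rest on 4 libraries a genotype, and estimated counts of at most 29 a library limit the 16 members not tested.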
